A study of Mus musculus with 3 samples.

Results

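Dense clusters of neighbouring TRα1 binding sites (TRBS) were examined in the striatum of adult mice. A dense cluster was a chain of at least 5 TRBS in which the next TRBS began at most 12500 bp after the end of the one before it, so that the members were chosen by their spacing on the chromosome. TRBS with a local background above 6 fragments had been left out before chaining. The deposited list held 23988 TRBS, of which 125 exceeded this limit. Among the 23863 that were kept, 1588 (6.65%) were members, and they formed 251 clusters out of 17322 chains in all. A further 13242 TRBS had no neighbour within this distance, and 9033 belonged to chains of 2 to 4.

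The chromatin came from freshly dissected striatum of 8-week-old male C57BL/6J mice, which were euthyroid and received no treatment. The animals expressed a GS-tagged TRα1 restricted to GABAergic neurons, so that the tagged receptor and not the total receptor of the tissue was precipitated, and the Cre driver is not given in the sources used here. The series held 2 ChIP libraries and 1 input library of the same genotype, all crosslinked with disuccinimidyl glutarate and formaldehyde, and a single list of called peaks that does not split its values by library. Replicates could therefore not be compared, no animal without the tag was among the samples used here, and every interval given here is a 95% interval that covers counting error over TRBS and not variation between animals.

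TRα1 is a nuclear receptor that binds DNA with or without thyroid hormone (T3), usually as a heterodimer with RXR. It releases corepressors and recruits coactivators when T3 is bound. Its preferred element, DR4, has the half-site AGGTCA followed after 4 spacer bases by another in the same orientation. The striatum consists mainly of GABAergic projection neurons, which signal through dopamine receptors, cAMP and the phosphodiesterases that degrade it, and several of their genes respond to thyroid hormone during brain development. Neighbouring sites for 1 factor around a gene can belong to separate enhancers, to a promoter or to stretches of open chromatin, and a peak list alone does not distinguish these.

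The sequences below show how the DR4 elements of the clusters look. A DR4 was counted where no more than 2 of the 12 half-site bases differed and all 16 bases lay within 100 bp of the summit, on either strand. The half-sites are in capitals, the 20 flanking bases on each side are in lower case, and each sequence is written 5′ to 3′ on the strand of the match, from the RefSeq sequence of GRCm38. The first 2 are the only matches without a mismatch among the members and were chosen for that reason after their values were seen. They lie at chr12:85620012-85620067 on the minus strand in an intron of Jdp2, and at chr7:5057755-5057810 on the minus strand in an intron of Ccdc106, between the TSSs of Zfp580 and U2af2.
Jdp2: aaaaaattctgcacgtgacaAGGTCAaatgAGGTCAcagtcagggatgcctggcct
Zfp580/U2af2: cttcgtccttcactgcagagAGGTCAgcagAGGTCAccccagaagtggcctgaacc

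The next 4 belong to the TRBS with the highest fold enrichment of their cluster, and each had 2 mismatches. They lie at chr16:35207456-35207511 (minus strand, intron of Adcy5), at chr11:98346080-98346135 (plus strand, upstream of Ppp1r1b), at chr7:45707828-45707883 (minus strand, in an intron of the coding transcripts of Dbp that a retained-intron transcript holds as exon) and at chr11:90368410-90368465 (minus strand, intron of Hlf).
Adcy5: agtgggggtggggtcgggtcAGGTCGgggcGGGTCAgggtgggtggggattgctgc
Ppp1r1b: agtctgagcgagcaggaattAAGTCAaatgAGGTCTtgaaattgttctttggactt
Dbp: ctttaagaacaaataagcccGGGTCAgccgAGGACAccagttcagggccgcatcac
Hlf: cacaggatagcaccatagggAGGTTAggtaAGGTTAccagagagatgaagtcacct

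The last 5 had 1 mismatch and lay in weaker TRBS of clusters described further on, at chr10:81018398-81018453 (minus strand, upstream of Gng7), chr17:8910628-8910683 (minus strand, intron of Pde10a), chr12:107967410-107967465 (minus strand, intron of Bcl11b), chr19:23137443-23137498 (plus strand, upstream of Klf9) and chr2:92445990-92446045 (minus strand, upstream of Cry2).
Gng7: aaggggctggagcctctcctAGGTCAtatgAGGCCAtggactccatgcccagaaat
Pde10a: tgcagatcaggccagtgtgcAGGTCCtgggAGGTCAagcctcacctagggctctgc
Bcl11b: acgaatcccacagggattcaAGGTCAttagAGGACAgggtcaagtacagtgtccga
Klf9: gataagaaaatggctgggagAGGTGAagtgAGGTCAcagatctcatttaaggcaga
Cry2: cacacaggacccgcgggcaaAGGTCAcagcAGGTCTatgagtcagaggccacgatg

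The clusters held 5 to 21 TRBS, with a median of 6, and spanned 3.83 to 86.2 kb, with a median of 23.3 kb. Together the spans covered 6.59 Mb. The 1337 gaps inside clusters had a median of 3480 bp and ranged from 76 to 12491 bp, while the smallest gap that was not joined was 12502 bp. Gaps shorter than 1 kb made up 23.3% of them, so that some neighbouring calls lay almost side by side. Close to the other limits of the rule there were 118 chains of exactly 5 TRBS and 289 of exactly 4. The background reached 5.95 fragments among kept TRBS and began at 6.18 among those left out. Joining calls less than 1 kb apart before chaining reduced the clusters from 251 to 151, and chaining only TRBS with a score of at least 200 left 9.

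Peak height and fold enrichment come from the same contrast of ChIP and input as the rule and are given as a description. The fold enrichment is the authors' ratio of the ChIP pileup at the summit to the local background. Its median was 7.87 in members, with a range of 4.26 to 123, and 7.39 in all other kept TRBS. The pileup had a median of 22.5 fragments in members and 21.0 in the others. Members were thus close in height to the rest of the list. The background lay at its floor of 1.69 fragments in 44.1% of members and 42.7% of the others, a difference of less than 2 percentage points.

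**Figure D1:**
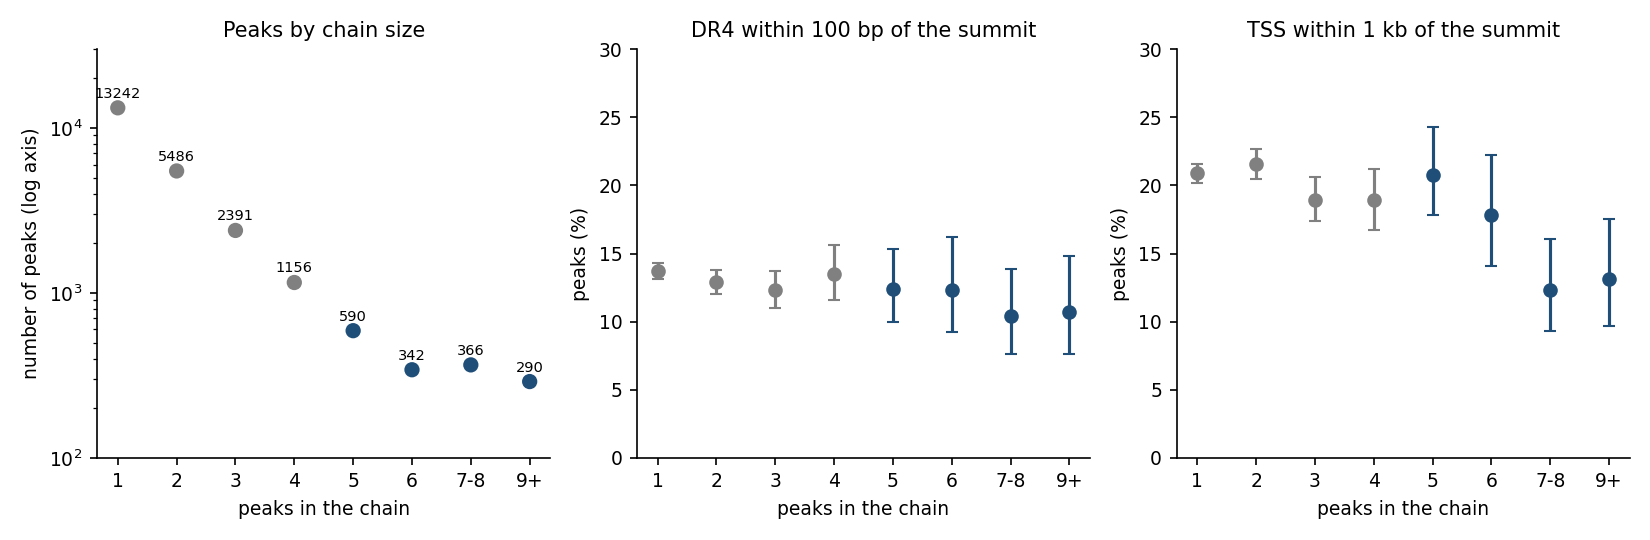
The left panel shows the number of kept TRBS by the number of TRBS in their chain on a log axis, the middle panel the percentage with a DR4 within 100 bp of the summit, and the right panel the percentage with a TSS within 1 kb. Grey marks chains of 1 to 4, blue marks the members, and the bars of the middle and right panels are 95% Wilson intervals. The DR4 share lay between 10.4 and 13.7% in all 8 classes. The TSS share was 20.9% for isolated TRBS and 20.8% in chains of 5. It was 17.8% in chains of 6, 12.3% in chains of 7 to 8 and 13.1% in chains of 9 or more.

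The first comparison asked whether members contain DR4 elements as often as other TRBS. A DR4 was found in 184 of 1588 members, or 11.6% (10.1 to 13.3), beside 13.2% of all kept TRBS and 13.3% (12.9 to 13.8) of the 22275 other TRBS. The odds ratio was 0.853 (0.724 to 1.000), which did not pass the threshold (two-sided Fisher's exact test, p = 0.0503, adjusted p = 0.132 over 21 comparisons of sequence and position). Beyond 1 kb of a TSS the shares were 12.7% in 1321 members and 15.1% in 17654 others (Fisher's exact test, odds ratio 0.817, adjusted p = 0.0639). Within 1 kb of a TSS they were 5.99 and 6.38% (Fisher's exact test, adjusted p = 1.00). The adjusted p was 0.0499 for all members with windows at the peak midpoint in place of the summit, and with 1 TRBS per chain the odds ratio turned to 1.04 (Fisher's exact test, adjusted p = 1.00).

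The spacer of 4 bases was nevertheless the most frequent arrangement in the clusters. With the same 2 mismatches and the same windows, direct repeats with spacers of 0, 1, 2, 3, 5, 6, 7 and 8 bases were found in 2.33 to 4.66% of members, and their 95% intervals ended at 5.81% or lower, below the 10.1% at which that of DR4 began. In the other TRBS the same 8 arrangements reached 2.15 to 3.26%. The spacer of 0 had 4.66% (3.73 to 5.81) in members and 3.10% (2.88 to 3.34) in the others, whereas those of 5 and 8 were less frequent in members. These differences were not tested. Of the 198 DR4 matches in members, 2 had no mismatch, 41 had 1 and 155 had 2.

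**Figure D2:**
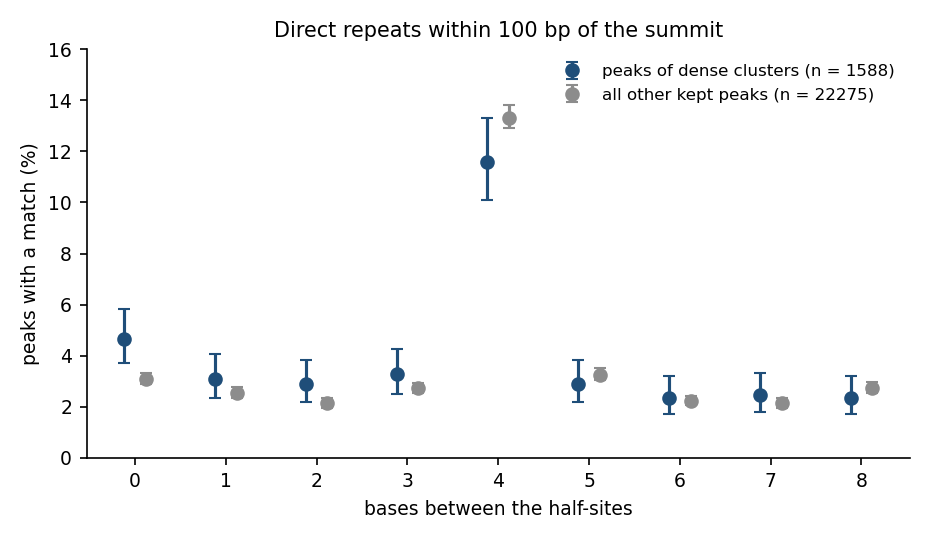
Percentage of TRBS (vertical axis) with a direct repeat of the half-site within 100 bp of the summit, against the number of bases between the half-sites. Blue points are the 1588 members and grey points the 22275 other kept TRBS, with 95% Wilson intervals. The spacer of 4 stands at 11.6% in members and 13.3% in the others, and no other spacer exceeds 4.66%.

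TRBS with a DR4, 11.6% of members beside 13.2% of all kept TRBS, were also counted per cluster. The counts that this share alone would give at these cluster sizes were not computed. No TRBS with a DR4 was found in 117 clusters, exactly 1 in 93, 2 in 33, 3 in 7 and 4 in 1, the cluster in Pde10a. In all, 134 of 251 clusters (53.4%, 47.2 to 59.5) held at least 1. This share depended on the definition, with 15.5% of clusters at no more than 1 mismatch and 93.6% at up to 3. In a typical cluster most TRBS therefore had no DR4 at the summit by this search, as among all kept TRBS. The TRBS with the highest fold enrichment of each cluster had a DR4 in 46 clusters (18.3%), compared with 138 of the remaining 1337 members (10.3%). In the 93 clusters with 1 DR4 TRBS, that TRBS was the strongest in 29 (31.2%), where a single TRBS was on average 16.7% of its cluster. Members with a DR4 had a median fold enrichment of 8.90, and members without had 7.81. The other kept TRBS had 8.18 and 7.13, so this difference was not particular to clusters. The strongest TRBS exceeded the median of its cluster 2.24-fold at the median, at least 2-fold in 147 clusters and at least 5-fold in 35. It exceeded the next strongest at least 2-fold in 79 clusters.

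The second comparison concerned promoters. Of the members, 267 had their summit no more than 1 kb from the TSS of a protein-coding gene (16.8%, 15.1 to 18.7), beside 20.5% of all kept TRBS and 20.7% (20.2 to 21.3) of the others. The odds ratio was 0.772 (0.672 to 0.885; two-sided Fisher's exact test, p = 1.44e-04, adjusted p = 0.00152). The share was not lower in all clusters. In the 118 clusters of exactly 5 TRBS it was 20.8% (17.8 to 24.3), beside 20.9% for isolated TRBS. It was 17.8% in clusters of 6, 12.3% in those of 7 to 8 and 13.1% in those of 9 or more. The direction of the odds ratio depended on the distance and the annotation. Within 5 kb of a TSS lay 33.1% of members and 29.0% of the others (Fisher's exact test, odds ratio 1.21, adjusted p = 0.0142), and with all transcript starts of coding genes the shares within 1 kb were 28.9 and 27.2% (Fisher's exact test, adjusted p = 0.293). With 1 TRBS per chain they were 20.7 and 21.0% (Fisher's exact test, adjusted p = 1.00). That alternative kept the first TRBS of each chain by position, whereas the tests over TRBS treat neighbours in 1 cluster as separate.

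Among members, DR4 was less frequent near TSSs, with 16 of 267 (5.99%) within 1 kb and 168 of 1321 (12.7%) beyond it (two-sided Fisher's exact test, odds ratio 0.438, 0.240 to 0.748, adjusted p = 0.00771). The other TRBS had 6.38% within 1 kb and 15.1% beyond it, so this difference was not particular to clusters. The call among members was lost in several alternatives while the odds ratio stayed below 1. The adjusted p by Fisher's exact test was 0.0558 with calls less than 1 kb apart joined, 0.195 with at least 7 TRBS, 0.203 with at most 1 mismatch, 0.353 with gaps of at most 5 kb and 0.420 with 1 TRBS per chain, where the odds ratio was 0.453. A score of at least 200 left 4 members within 1 kb of a TSS, 1 of them with a DR4, and turned the odds ratio to 4.53 (Fisher's exact test, adjusted p = 0.612).

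By annotation, 55.5% (53.0 to 57.9) of member summits lay in introns, 28.7% (26.5 to 30.9) between genes, 10.9% in noncoding exon sequence and 4.97% in coding exons. The other TRBS had 47.1, 39.1, 10.3 and 3.45%, in the same order. These shares were not tested. All summits lay in the body of 1 gene in 74 clusters (29.5%), while 23 clusters had no summit in a coding gene and no TSS in their span. A TSS was absent from the span of 106 clusters, 85 spans held 1, 31 held 2 and 29 held 3 or more. The spans held 3.80 TSSs of coding genes per 100 kb, compared with 0.805 over the chromosomes. Spans begin and end at TRBS, and 20.5% of all kept TRBS lay within 1 kb of a TSS. The sequence around other kept TRBS was not counted in this way, so the difference is not shown to belong to clusters.

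Exact matches to the motifs of other factors were counted on both strands in the same windows. Beyond 1 kb of a TSS, the AP-1 site (TGANTCA), bound by Fos and Jun dimers, was found in 10.9% of members and 13.9% of the others (two-sided Fisher's exact test, odds ratio 0.759, adjusted p = 0.0111). The GC box (GGGCGG), bound by Sp and Klf factors, was found in 12.49 and 8.88% (Fisher's exact test, odds ratio 1.47, adjusted p = 5.12e-04). GC content at the summit moved with these results, with a median of 52.7% in members and 48.3% in the others beyond 1 kb of a TSS. Among TRBS of 50 to 60% GC the GC box was found in 9.77% of 706 members and 11.2% of 5764 others (Fisher's exact test, odds ratio 0.857, adjusted p = 0.280), the opposite direction. The AP-1 site kept its direction there, with 10.2 and 13.3% (Fisher's exact test, odds ratio 0.738, adjusted p = 0.0532), as did DR4 with 12.46 and 15.1% (odds ratio 0.801, adjusted p = 0.0961), and neither passed the threshold. With 1 TRBS per chain no motif passed, with an odds ratio of 1.61 for the GC box (Fisher's exact test, p = 0.0365, adjusted p = 0.255) and 0.990 for AP-1 among 199 members beyond 1 kb.

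The other motifs gave no comparison that passed, over all members or beyond 1 kb, and neither did AP-1 and the GC box over all members. There the AP-1 site stood at 9.70 and 11.6% (Fisher's exact test, adjusted p = 0.0639), and the GC box at 18.6 and 18.1%. Over all members the single half-site AGGTCA, which also counts half-sites inside a DR4, was found in 19.0% of members and 17.8% of the others (Fisher's exact test, adjusted p = 0.352). The E-box CAGCTG, a site of basic helix-loop-helix factors, stood at 14.6 and 12.7% (Fisher's exact test, adjusted p = 0.0980). GTTGCC, part of the sites of RFX factors, was found in 9.19 and 7.89% (Fisher's exact test, adjusted p = 0.137). The MEF2 site stood at 3.27 and 3.22%, and the cAMP response element TGACGTCA at 0.756 and 0.530%. Among all kept TRBS the AP-1 site was present in 11.5%, the GC box in 18.1%, the half-site in 17.8%, the E-box in 12.8%, GTTGCC in 7.98%, the MEF2 site in 3.22% and the cAMP response element in 0.545%. The full NFI palindrome occurred in 0.00419% and allowed no comparison.

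The 12 clusters with the most TRBS are shown along their length. The largest had 21 TRBS over 73.7 kb at chr10:80968898-81042554, of which 16 summits lay in Gng7, which encodes the G-protein γ subunit that couples striatal dopamine and adenosine receptors to adenylyl cyclase. Its strongest TRBS, with a fold enrichment of 47.0 and a pileup of 126, lay 13680 bp inside the gene, and none of its 21 summits lay within 1 kb of the Gng7 TSS. Adcy5, the main adenylyl cyclase of striatal projection neurons, had 15 TRBS at chr16:35181904-35257086, all in introns between 27194 and 102028 bp from the TSS. The strongest of these reached 61.5 and was the 1 with a DR4, and the next reached 48.7. Pde10a, a phosphodiesterase of the same neurons, had the longest cluster, with 12 TRBS at chr17:8843160-8929332. None of its TRBS exceeded 16.8, and this one was among the 4 with a DR4.

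**Figure D3:**
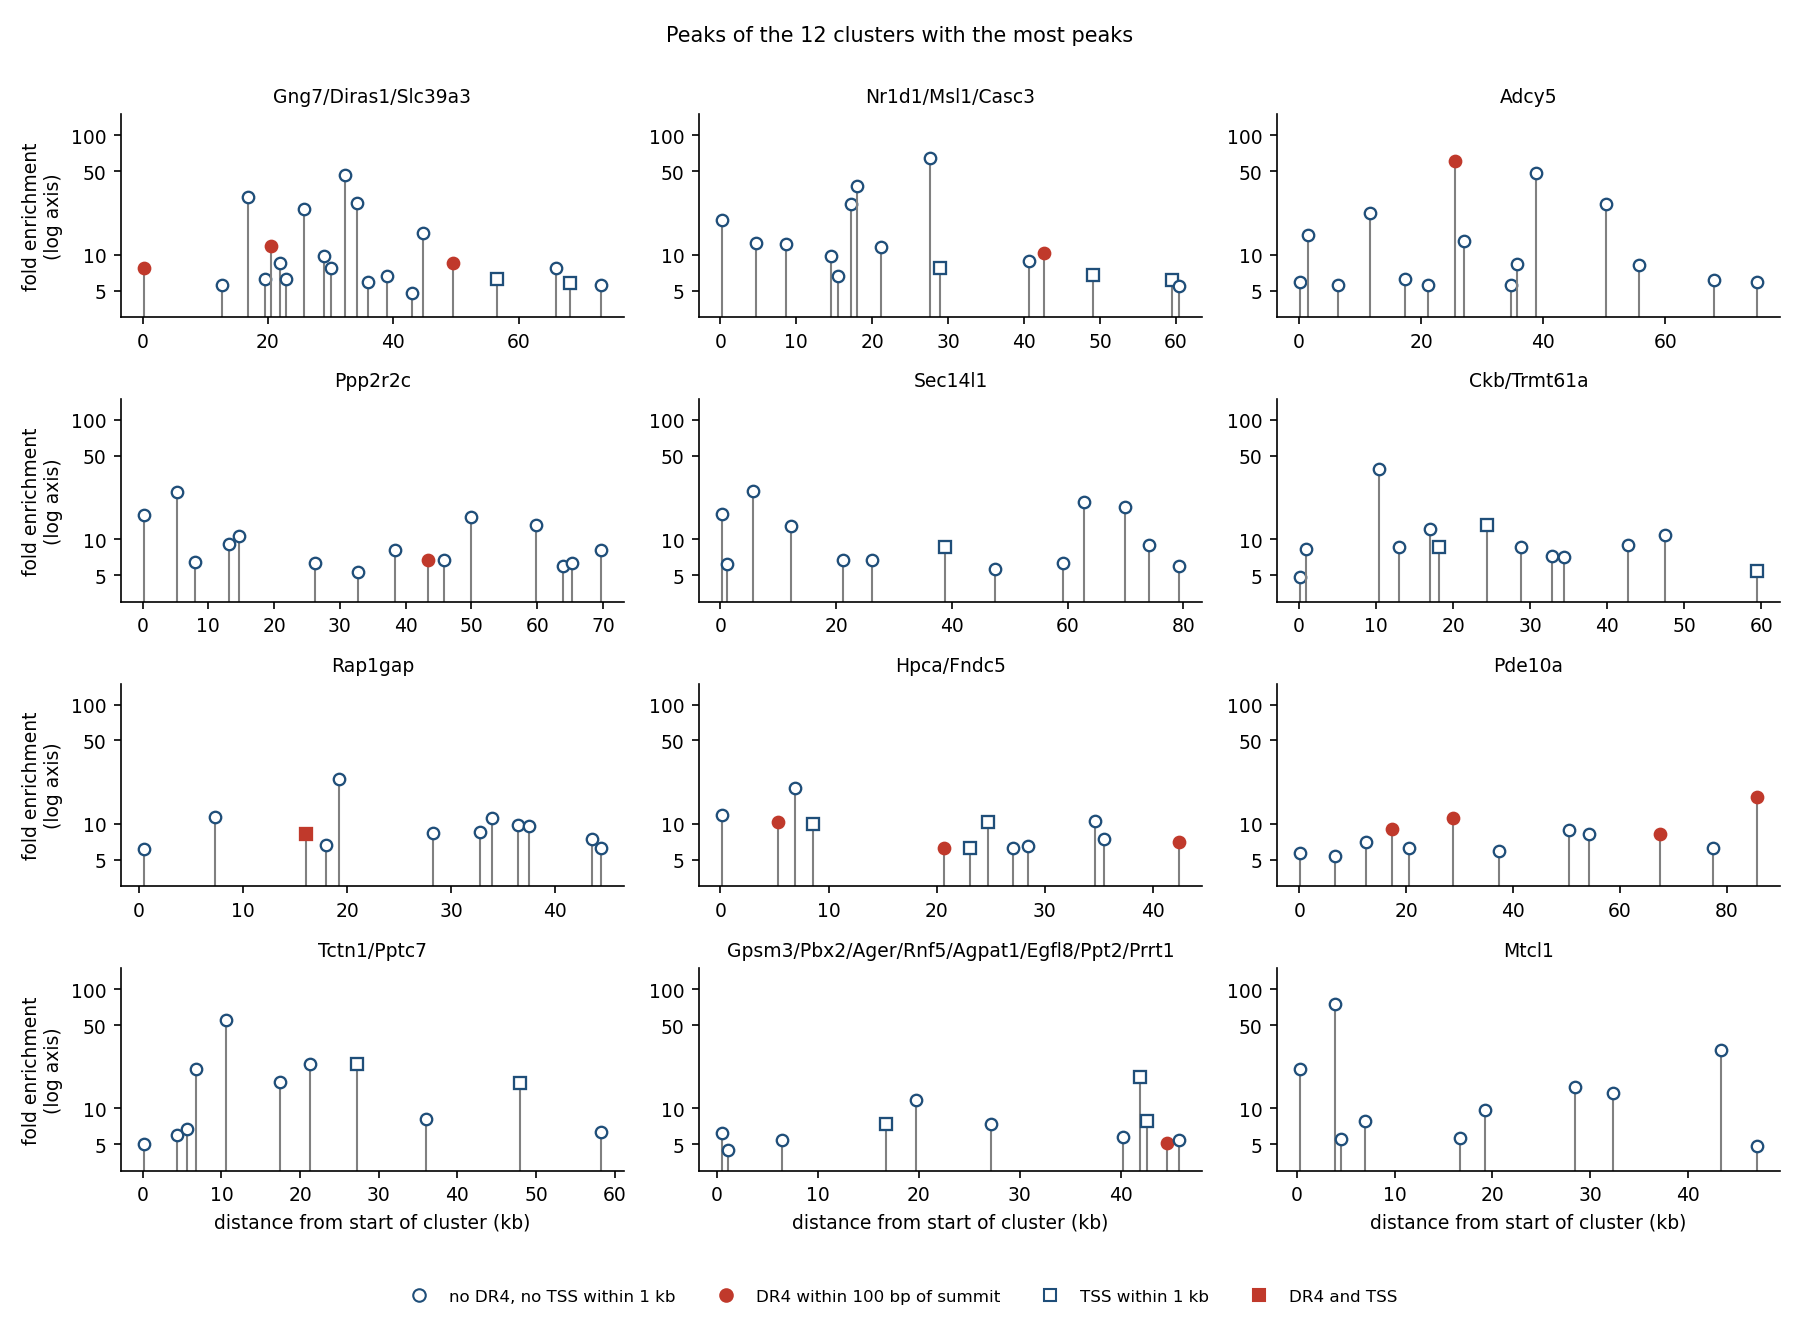
Fold enrichment of each TRBS (log axis) against the distance from the start of the cluster in kb, for the 12 clusters with the most TRBS. Filled red symbols have a DR4 within 100 bp of the summit and squares have a TSS within 1 kb. Adcy5 and Pde10a have a DR4 in their strongest TRBS, at 61.5 and 16.8, whereas the strongest TRBS at Gng7, Nr1d1 and Mtcl1, at 47.0, 64.7 and 75.5, have none there.

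The cluster at chr11:98746401-98806953 began in Thra, the gene of the receptor itself, and ran through Nr1d1, which encodes the clock repressor Rev-erbα, to Msl1 and Casc3. Of its 15 TRBS, 8 had their summit in Thra, 4 of these in coding exons, with fold enrichments of 9.67, 6.69, 26.8 and 37.7. The mice carried a tagged TRα1, and whether reads from that sequence contributed to these 4 was not tested. Without them 11 TRBS remained and were still joined in 1 cluster. The strongest TRBS, at 64.7 with a pileup of 173, lay in an intron of Nr1d1, 1339 bp from its TSS, and held a DR4 in the called peak but not near the summit. The only DR4 at a summit, with 2 mismatches, lay 6530 bp upstream of Msl1 in a TRBS of 10.3.

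The other large clusters ranged from 10 to 15 TRBS. Ppp2r2c, a regulatory subunit of protein phosphatase 2A, had 15 with a strongest fold enrichment of 24.9 and 1 DR4. The 13 TRBS at Sec14l1 reached 25.2 upstream of the gene, and the 13 from Mark3 over Ckb, the brain creatine kinase, to Bag5 reached 39.2, without a DR4 at a summit in either. At Rap1gap, a GTPase-activating protein for Rap1, there were 12 TRBS with a maximum of 23.8, and the single DR4 at a summit lay 752 bp upstream of its TSS in a TRBS of 8.18. The 12 TRBS at Hpca, a neuronal calcium sensor, and Fndc5, the precursor of irisin, reached 20.1 and included 3 with a DR4. The cluster from Hvcn1 to Pptc7 had 11 TRBS up to 55.0 with no DR4 at a summit, and Mtcl1 had 10 up to 75.5, the strongest lying beyond the 3-prime end of the gene, with none either. A gene-dense stretch of chromosome 17 from Notch4 to Prrt1 held 8 TSSs and 11 TRBS, of which the strongest, at 18.5, lay 193 bp upstream of Ppt2.

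Among the 5 clusters with the highest median fold enrichment, Tctn1/Pptc7 had a median of 16.3 over 11 TRBS. Tex14 had 5 intronic TRBS of 20.4, 5.52, 14.1, 18.1 and 17.5. The 6 TRBS at Ddx20 and Inka2 had values of 12.3, 21.2, 25.3, 12.3, 6.45 and 29.6, and the 5 beyond Lrrc74a had 20.5, 8.20, 6.97, 16.2 and 26.5. In Abcc12 the 6 TRBS had 5.58, 25.6, 7.44, 55.0, 21.6 and 10.3. All 5 clusters lacked a DR4 at any summit and were among the 117 of 251 clusters (46.6%) without one.

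The genes that overlapped a cluster were then counted against lists of genes by cell type and function, which had been written with earlier results of these data known and were not tested. Of 21938 protein-coding genes, 377 (1.72%) overlapped a cluster with some part of their body, and 250 had their TSS in a span. The median length of all coding genes was 17.4 kb. Among genes characteristic of striatal projection neurons, 9 of 25 (36.0%) overlapped a cluster, and their list had a median length of 67.6 kb. The circadian clock list had 8 of 20 (40%), at a median length of 32.7 kb, neuronal genes in general 5 of 20, immediate early genes 4 of 20 and genes of thyroid hormone signalling and response 3 of 20. The part of gene length in these counts was not tested. Occupancy was measured and not expression. Of the marker lists for other cell types with 10 genes each, oligodendrocytes had 1, which was Mbp, and astrocytes, microglia, endothelial cells and hepatocytes had 0.

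**Figure D4:**
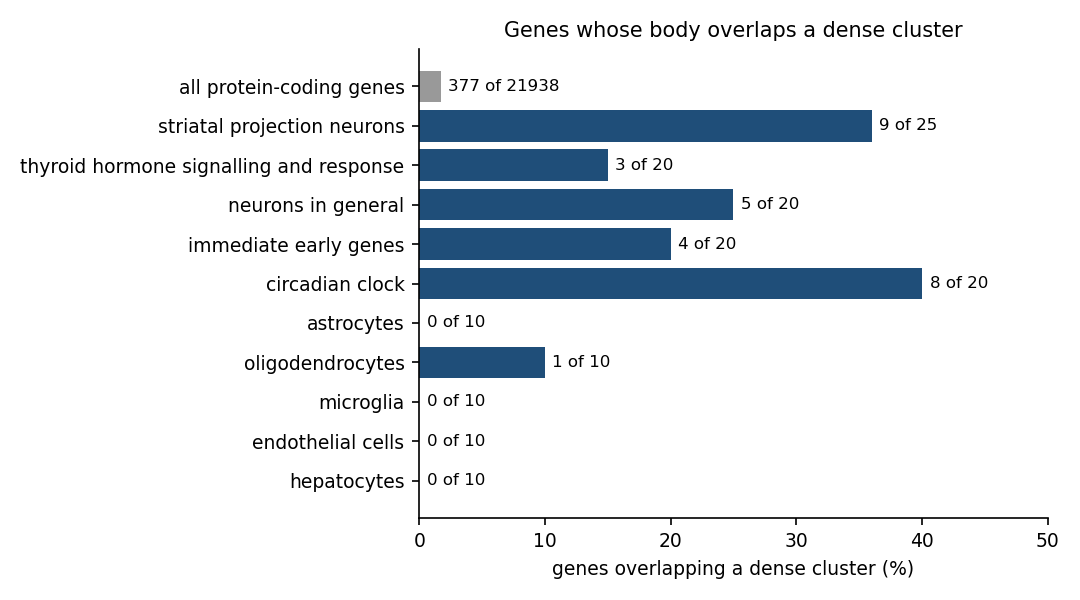
Percentage of the genes of each list whose body overlaps a dense cluster, with the number of genes beside each bar. The grey bar is all protein-coding genes, at 1.72%, and the lists range from 0 of 10 to 8 of 20.

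Beside Gng7, Adcy5 and Pde10a, the striatal genes were Bcl11b, Gnal, Ppp1r1b, Ptpn5, Rasd2 and Rgs9. Rgs9, a regulator that shortens dopamine receptor signalling, had 7 intronic TRBS with fold enrichments of 6.38, 8.18, 7.44, 5.85, 90.4, 11.9 and 35.7. The TRBS of 90.4, with a pileup of 242, lay 8691 bp inside the gene and had no DR4 at its summit. Ppp1r1b encodes DARPP-32, the phosphatase inhibitor through which dopamine acts in these neurons. Its cluster of 7 TRBS also held the TSS of Stard3, and 4 of the summits lay in Ppp1r1b. The values were 16.7, 42.4, 14.3, 7.47, 8.55, 8.18 and 5.58. The highest, which carries the DR4 printed above, lay 2245 bp upstream of the Ppp1r1b TSS.

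Bcl11b encodes the transcription factor Ctip2 that striatal projection neurons need to differentiate, and it was covered by a pair of clusters separated by 12842 bp. The 7 TRBS of the first lay in an intron and reached 16.1, with a DR4 in 2 of them, and the 6 of the second extended from 4003 bp inside the gene to 14102 bp upstream of its TSS, with values of 4.85 to 38.3, the highest the farthest upstream, and no DR4. The α subunit of the striatal G protein, Gnal, had 7 TRBS of up to 33.2 in its introns, at a place where the gene Chmp1b lies inside it. Ptpn5, the striatum-enriched phosphatase STEP, had 7 of the 10 summits of its cluster, with a maximum of 32.4. Rasd2, a small G protein known as Rhes that is regulated by thyroid hormone in striatum, had 1 of the 6 summits of its cluster. These 6 TRBS had values between 5.55 and 16.2, and 1 DR4 lay 20380 bp downstream of the Rasd2 TSS.

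From the thyroid hormone list, Klf9, Hr and Thra overlapped a cluster. Klf9, a Krüppel-like factor induced by T3 in many cells, had 8 TRBS with values of 5.58, 24.8, 47.7, 6.31, 4.63, 6.39, 6.06 and 6.41. The highest 2 lay 17080 and 5194 bp upstream of the TSS, whereas the TRBS nearest to the TSS was the lowest, at 4.63. A DR4 with 1 mismatch was found in the TRBS 3738 bp upstream, of 6.31. The strongest call was 2869 bp long, and held a DR4 within the call but not in the summit window.

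Hr encodes a corepressor of nuclear receptors that is itself a classical target of thyroid hormone in brain. In its cluster, which also overlapped Lgi3 without its TSS and held the promoter of Reep4, the fold enrichments were 6.83, 5.14, 8.55, 71.8 and 21.6. The highest lay 2723 bp upstream of the Hr TSS, with a pileup of 192. It had no DR4 within 100 bp of its summit but held one elsewhere in the called peak. The TRBS of 21.6 lay 98 bp upstream of the TSS and had a DR4 with 2 mismatches. This locus thus combined a strong upstream TRBS and a promoter TRBS.

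The clock genes fell into repressors, activators and outputs. Among the outputs, the PAR bZIP factors Dbp, Tef and Hlf each had a cluster of 5 TRBS. Of these, 2 summits lay in Dbp, 4 in Tef and 4 in Hlf, and the cluster at Dbp also held the TSS of Car11. The values were 5.58, 5.02, 11.4, 9.28 and 38.6 at Dbp, 6.32, 18.5, 17.9, 5.29 and 8.03 at Tef, and between 6.02 and 16.6 at Hlf. Each of these clusters had TRBS within 1 kb of its own TSS and at least 1 DR4 inside the gene, 2765 bp from the TSS at Dbp, 8435 and 18354 bp at Tef and 22480 bp at Hlf. At Dbp and Hlf the DR4 TRBS was the strongest of the cluster. At Tef the 2 DR4 TRBS had 17.9 and 8.03, and the strongest, of 18.5, had no DR4 at its summit. Among all 251 clusters, 53.4% held a DR4 TRBS, and the strongest TRBS had one in 18.3%.

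Among the repressors, Cry2 shared a cluster of 9 TRBS with Slc35c1. None exceeded 14.5, and 3 of them had a DR4. Per1 shared a cluster of 5 with Vamp2, a synaptic vesicle protein, and 4 of the 5 summits lay in Per1. The strongest TRBS, of 25.6, lay 1288 bp upstream of Vamp2, and no summit had a DR4. Bhlhe41 had 5 TRBS, of which that 566 bp upstream of its TSS reached 41.8 and the others 5.85 to 7.53, and a DR4 was found in 2 of the weak TRBS downstream. The activator Npas2, a partner of Bmal1, had 6 TRBS with values of 4.29 to 23.3. Its highest 2 flanked the TSS at 638 bp upstream and 371 bp downstream, and the 2 TRBS with a DR4 lay 16876 and 14020 bp upstream. The number of clock genes in clusters was 10 with chains of at least 4 TRBS, where 3.39% of all coding genes overlapped one. It was 4 when calls less than 1 kb apart were joined and 2 with chains of at least 7 TRBS, where the shares of all coding genes were 1.06 and 0.602%. The striatal list had 12, 8 and 8 genes under the same settings. With gaps of at most 5 kb the clock list had 2 and the striatal list 3, beside 0.369% of all coding genes. A score of at least 200 left 1 in each list, beside 0.0547%. With gaps of at most 25 kb the clock list had 8 and the striatal list 13, beside 5.80% of all coding genes.

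**Figure D5:**
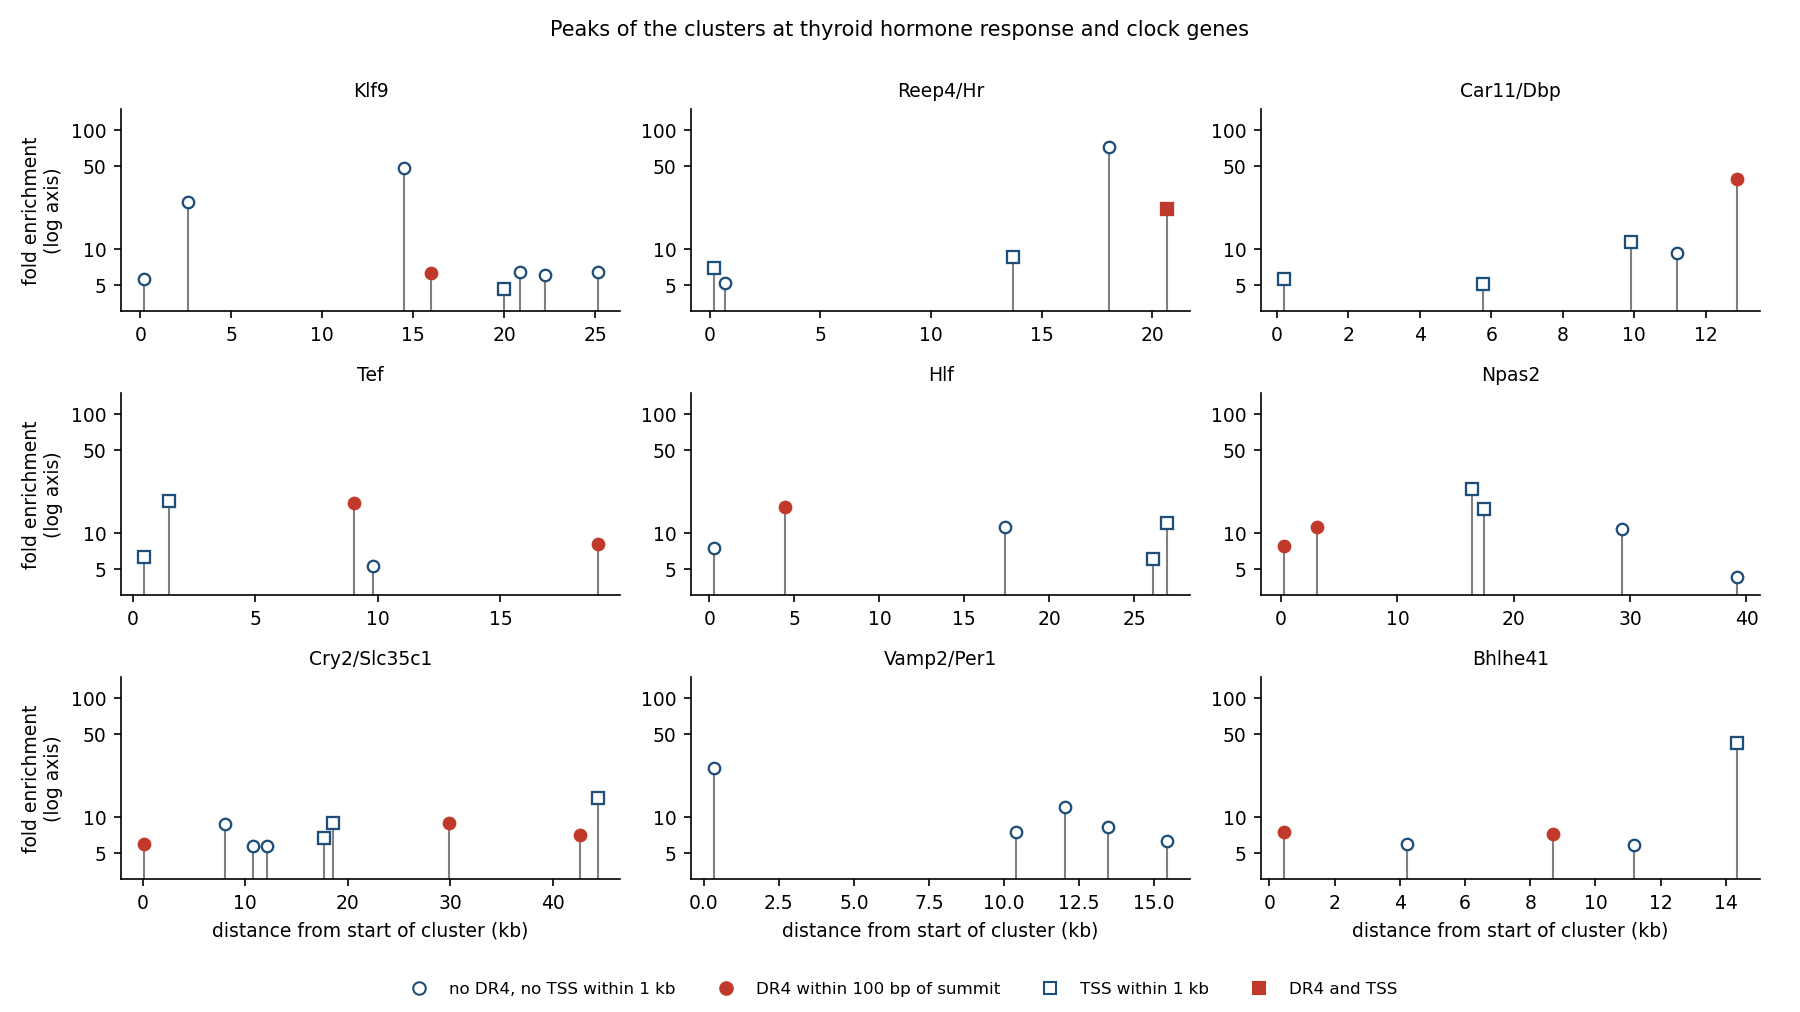
Fold enrichment of each TRBS (log axis) against the distance from the start of the cluster in kb, at thyroid hormone response genes and clock genes, with symbols as in the plot of the largest clusters. The TRBS of 71.8 beside Hr and of 47.7 beside Klf9 hold a DR4 in the called peak but not within 100 bp of the summit, and that of 38.6 at Dbp has one at the summit.

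The immediate early genes with a cluster were Arc, Fosb, Ier5 and Nr4a1, which are switched on rapidly by neuronal activity. The TRBS of their clusters were moderate, at most 15.6 at Arc, 12.6 at Fosb, 24.2 at Ier5 and 14.8 at Nr4a1. Only 1 summit lay in each of Arc, Fosb and Ier5. The cluster at Nr4a1 also held the TSS of Grasp, and 2 of its 9 summits lay in Nr4a1. The TRBS of 14.8 lay between genes. A DR4 at a summit was found only in the cluster of Ier5, in 2 of 8 TRBS. At Ier5, 6 of the 8 summits lay 10125 to 48014 bp beyond the start of the gene in the direction of its transcription. Among neuronal genes, Camk2a and Camk2b encode the subunits of the calcium/calmodulin kinase of synapses. Camk2b had 9 intronic TRBS with a maximum of 36.4, and Camk2a had 9 with no value above 10.8. Gad1, the enzyme of GABA synthesis that defines GABAergic neurons, had 8 TRBS from 614 bp upstream to 28249 bp downstream of its TSS, with values of 5.20 to 14.9 and a DR4 in the TRBS of 7.81 and 9.99. Rbfox3, which encodes the neuronal antigen NeuN, had 6 TRBS up to 22.3 and the scaffold gene Dlg4 shared 6 up to 11.5 with Acadvl. In Mbp, a myelin gene that is a known target of thyroid hormone in oligodendrocytes, 5 TRBS lay 32356 to 53484 bp from the start of the gene, and the strongest reached 32.7.

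Clusters were unevenly placed on chromosomes. Chromosome 11 had 30 (0.246 per Mb), chromosome 15 had 20 (0.192 per Mb) and chromosome 5 had 19 (0.125 per Mb). The shorter chromosome 19 had 10 (0.163 per Mb). Chromosome X had 1, and chromosome Y, with only 4 kept TRBS, had 0. Members made up 12.3% of kept TRBS on chromosome 15, 11.9% on chromosome 11 and 1.45% on chromosome X, against 6.65% in all. In 20 cases the next cluster began within 100 kb, and in 7 of these within 25 kb, so that some loci were divided by the limit on the gap. These included Rap1gap, whose clusters of 12 and 9 TRBS lay 16599 bp apart, and Osbpl3, whose clusters of 6 each lay 17541 bp apart.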

How the data were processed

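TRα1 ChIP-seq of mouse striatum comprised 2 ChIP libraries and 1 input library, grouped by sample title. The authors had aligned reads to GRCm38 (mm10) with Bowtie2 (2.3.2.2 in the submitters' processing notes), called peaks with MACS2 2.1.1.20160309.0 and removed peaks with a score below 60. Whether ChIP libraries were pooled, and how duplicates were treated, is not given in the sources used here. Read totals of the libraries were not used here, so the depth behind each peak is known only as its pileup.

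Pileup, as deposited, is the coverage (signal) of ChIP fragments at the summit. The authors' fold enrichment is the ratio of pileup to local background, each plus 1. Columns with −log10 p and q from MACS2, also deposited, were not used, and the deposited score served only for an alternative. The local background was computed as (pileup + 1) / fold enrichment − 1.

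TRBS were chained at gaps of at most 12500 bp (Python 3.11.15, pandas 2.3.3, numpy 2.4.6). TSSs and gene bodies were those of 21938 protein-coding genes of GENCODE on GRCm38, and sequence was RefSeq GRCm38. Each gene had 1 TSS, where its annotated body begins on its strand. Noncoding exon sequence comprised UTRs and exons of noncoding transcripts. A cluster was called by the coding genes whose TSS lay in its span, otherwise by the gene holding most summits or the nearest. Shares were compared by two-sided Fisher's exact tests (scipy 1.17.1), adjusted by Benjamini and Hochberg over 21 comparisons with a threshold of 0.05, and given with Wilson intervals. Comparisons in the GC range of 50 to 60%, added later, were adjusted over their 3 features. The programs were tested on simulated data.

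Named clusters were the 12 with most TRBS (ties were ordered by summed fold enrichment, which admitted 1 of the clusters with 10), the 5 with the highest median fold enrichment and those overlapping a gene of a list. The members, lists and tests were chosen with earlier results of these data known. The alternatives were other gaps, minimum numbers, scores, backgrounds, joined calls, mismatches, windows, annotations and 1 TRBS per chain (the first by position). The GC range, the Thra cluster without coding exons, 1 TRBS per chain for DR4 by distance to the TSS and the list counts by setting were chosen after seeing the data.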

Additional observations from a re-analysis of the deposited data

How the results depend on the processing

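No paired analysis was possible because the list carries no values for single libraries, and for the same reason no replicate could be left out. Counts followed the rule. A gap of at most 5 kb gave 66 clusters with 378 members and 48 coding genes with a TSS in a span, a gap of at most 25 kb gave 617, 4289 and 917, at least 4 TRBS gave 540, 2744 and 459, at least 7 gave 76, 656 and 81, a score of at least 200 gave 9, 50 and 4, and joined calls gave 151, 927 and 147, against 251, 1588 and 250. TSSs of all annotated genes gave 387 genes. Members without the Thra coding exons numbered 1584. The share of clusters with a DR4 TRBS, 53.4%, became 47.0% at 5 kb, 59.6% at 25 kb, 61.8% at 7 or more TRBS, 44.4% at a score of 200, 15.5 and 93.6% at 1 and 3 mismatches, 39.4% within 50 bp of the summit and 63.3% anywhere in the peak.

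For DR4 in members against others, the odds ratio of 0.853 was 0.810 at the peak midpoint, past the threshold, 0.442 at a score of 200, and turned to 1.04 with 1 TRBS per chain. Beyond 1 kb of a TSS, 0.817 became 0.806 without a limit on the background and 0.793 at the midpoint, both past the threshold, 0.305 at a score of 200, and 1.01 with 1 TRBS per chain. For TSSs within 1 kb, 0.772 became 0.804 at 5 kb gaps, 0.269 at a score of 200 and 0.982 with 1 TRBS per chain, none past the threshold, and turned to 1.09 with all transcript starts and 1.21 within 5 kb. For DR4 near against far from a TSS, 0.438 became 0.224 at 5 kb gaps, 0.396 at 7 or more TRBS, 0.300 with joined calls, 0.364 at 1 mismatch and 0.453 with 1 TRBS per chain, none past the threshold, and turned to 4.53 at a score of 200. The GC box beyond 1 kb had 1.61 with 1 TRBS per chain, not past the threshold, and turned from 1.47 to 0.351 at a score of 200 and to 0.857 at 50 to 60% GC. Of the motif comparisons 2 passed, against 0 with 1 TRBS per chain and 0 at a score of 200. AP-1 went from 0.759 to 0.990 and 0.988. The causes of these changes were not tested. The stricter rules and 1 TRBS per chain also leave smaller numbers, and their part was not tested either. Of 121 alternative values, 60 kept the direction and the side of the threshold or, without a test, stayed close to the reported value.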
